A study of Mus musculus with 104 samples.

Results

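The 16 cortex libraries of mice killed at 12 months were compared by genotype: 8 from BAC-CAG mice and 8 from their wild-type (WT) littermates, out of 104 libraries in the series. They were chosen as the cortex columns of the deposited 12-month count table, and the genotype was read from each sample's title. BAC-CAG mice carry a bacterial artificial chromosome (BAC) with the whole human mutant huntingtin gene, expressed from the gene's own regulatory sequences, with a long uninterrupted CAG repeat, beside both copies of mouse Htt. The WT mice lack the transgene, and both groups are on the FVB background and received no treatment other than perfusion with saline before dissection. Each group held 4 females and 4 males, whereas the series' design text speaks of 3 of each sex per age group. The series also holds striatum of the same animals, cortex at 2 and 6 months, and a cohort of BACHD mice, whose human huntingtin transgene carries a mixed CAA-CAG repeat. Nothing in the labels says how many BAC-CAG founder lines were used.

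Huntingtin is a large scaffold protein with roles in vesicle transport, transcription and autophagy. Expansion of the CAG repeat in its first exon, which encodes glutamine, causes Huntington's disease. The striatal projection neurons are the most affected cells in the disease, and the cortical pyramidal neurons that project to them, above all those of the deep layers, are affected as well. Cortical neurons also supply the striatum with brain-derived neurotrophic factor (BDNF).

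Total counts per library ranged from 26534846 to 40567892 in WT cortex and from 32397277 to 45703071 in BAC-CAG cortex. Levels are given as CPM, the count scaled by the library's total and its TMM factor. Transcripts of cortical excitatory neurons marked all 16 libraries. Slc17a7, the vesicular glutamate transporter, stood at 1124 to 1428 CPM in cortex against 8.24 to 690.1 CPM in the striatum of the same animals, scaled together. Xist levels matched the labelled sex. The first principal component of the libraries (22.5% of the variance) set apart BAC-CAG replicates 1 and 2 and WT replicate 6, all males. In these 3 libraries the dopamine receptor gene Drd2, a marker of striatal neurons, stood at 3.61 to 7.25 CPM against 0.557 to 2.30 CPM in the other 13, and Penk at 49.6 to 92.6 against 18.3 to 40.9 CPM. Adora2a stood at 3.61 to 9.86 against 1.40 to 2.75 CPM. The mean log2 level of the striatal projection neuron genes over a library was 5.50, 5.53 and 5.84 in them. In the other 13 it was 5.06 to 5.26, without overlap. The summed CPM of the 31 tested genes of that list, to which abundant members add most, did overlap. It was 4188 to 4619 in the 3 and 3917 to 4603 in the others. Hpca, an abundant member, was lowest of all 16 libraries in BAC-CAG replicates 1 and 2 (399.5 and 384.5 CPM). These BAC-CAG replicates alone carry the capital letter A in the animal tags of the titles, and no WT animal carries it. A second pair of libraries, WT replicates 7 and 8, stood apart for the complement gene C3, as described further on. They also had the lowest mean level of immediate early genes among the WT libraries. Results were therefore also computed without each of these sets. In tissue libraries fewer cells of a type and less RNA per cell cannot be told apart.

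One gene differed between genotypes in cortex at 12 months. Msantd1, which encodes a protein with a predicted Myb/SANT-like DNA-binding domain, was higher in BAC-CAG cortex, and it was the one call among 17950 genes tested (0.00557% of the genes; edgeR quasi-likelihood test with sex as a covariate and Benjamini-Hochberg adjustment over all genes, threshold 0.05). In total 457 genes had an unadjusted p under 0.05, of which 240 (1.34% of the genes tested) were higher and 217 (1.21%) lower in BAC-CAG, where 898 would lie under that value at a rate of 5%. For the 15319 genes that averaged 1 CPM or more, the median standard error of a log2 change was 0.0592. The 95% interval of the change lay within 1.5-fold in either direction for 14927 of them (97.4%) and within 1.2-fold for 11473 (74.9%).

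In the same fit 136 genes (0.758%) were called between females and males, 65 higher in females and 71 higher in males, and 115 of them lie on autosomes. With any single library left out the count was 54 to 154, the lowest without BAC-CAG replicate 2. In the animal tags of the titles, letters A, F and G hold only males and letters a, b and c only females. Sex therefore cannot be told apart from what the letters stand for. Relative to males, females had a log2 change of -0.27 for Pdzd2 and of -0.29 for Smad3, which encodes a mediator of TGF-beta signalling. The genotype effect itself was called different between the sexes for 0 of 18710 genes by edgeR, with 713 at an unadjusted p under 0.05, and for 1 gene by DESeq2. In females alone 1 gene was called, in males alone 0.

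Msantd1 lies on chromosome 5 (chr5:34908012-34923839, plus strand, GRCm38), directly after Htt (chr5:34761740-34912534, plus strand). The 2 gene spans overlap by 4523 bp but share 0 exon bases in GENCODE M21. Msantd1 stood at 8.39, 6.82, 5.28, 8.92, 5.08, 10.4, 5.54 and 3.79 CPM in BAC-CAG replicates 1 to 8, and at 1.43, 1.63, 1.92, 1.97, 1.82, 2.28, 1.502 and 1.202 CPM in WT replicates 1 to 8. Every BAC-CAG library lay above every WT library, the lowest BAC-CAG value being BAC-CAG replicate 8 and the highest BAC-CAG replicate 6. The means were 6.78 ± 2.26 CPM (SD, n = 8) against 1.72 ± 0.35 CPM (SD, n = 8), a log2 change of 1.95 (SE 0.21, adjusted p = 3.2e-04, edgeR). These values rest on 41 to 83 reads per WT library and 173 to 411 per BAC-CAG library. The change was 2.07 (SE 0.30) in females and 1.83 (SE 0.30) in males. It was 1.89 without the 3 libraries set apart on the first component and 1.88 without WT replicates 7 and 8 (edgeR, adjusted p = 0.0013 and 0.0085). With the letter of the animal tag as a block, which leaves only letters that hold both genotypes to carry the contrast, the log2 change was 1.62 and no longer passed the test (edgeR, adjusted p = 0.069).

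The Msantd1 levels of cortex were set beside those of the striatum of the same 8 BAC-CAG animals, both scaled over the 32 libraries at 12 months. In animals 1 to 8 they were 8.48, 6.91, 5.37, 9.08, 5.17, 10.5, 5.65 and 3.84 CPM in cortex. In the striatum of the same animals they were 13.7, 13.8, 10.4, 27.8, 12.8, 27.5, 9.38 and 11.3 CPM. Animals 4 and 6, both females, had the highest level in both tissues. Pearson's r was 0.84 (exact permutation p = 0.0044, two-sided, n = 8) and Spearman's rho 0.74 (exact permutation p = 0.046, two-sided, n = 8). Without animals 4 and 6, the 2 farthest from the median, r was 0.59 (exact permutation p = 0.23, n = 6), so the relation rests on those animals.

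Mouse Htt itself, which the BAC-CAG animals retain, was at nearly the same level in both genotypes. It stood at 243 to 283 CPM in BAC-CAG cortex (median 268) and at 238 to 261 CPM in WT cortex (median 249), and the groups overlapped. The difference of the means was 15.4 CPM (two-sided exact permutation p = 0.0216, n = 8 and 8), and 7 of 8 BAC-CAG libraries lay above the WT median. On the log2 scale the change was 0.083 (SE 0.033), with an unadjusted p of 0.023 that did not survive adjustment over all genes. All 48795 rows of the table are mouse genes, so the transgene has no row of its own, and what share of reads counted for mouse Htt or Msantd1 came from human sequence was not tested. Nop14 and Grk4, the nearest tested genes before Htt, had log2 changes of -0.02 (SE 0.06) and -0.03 (SE 0.09). Rgs12, which lies after Msantd1, had one of -0.21 (SE 0.15). Of the 35 tested genes that start within 1 Mb of Htt, 1 was called, 19 had a positive change, and the median log2 change was 0.003 against 0.0006 over all genes tested.

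**Figure D1:**
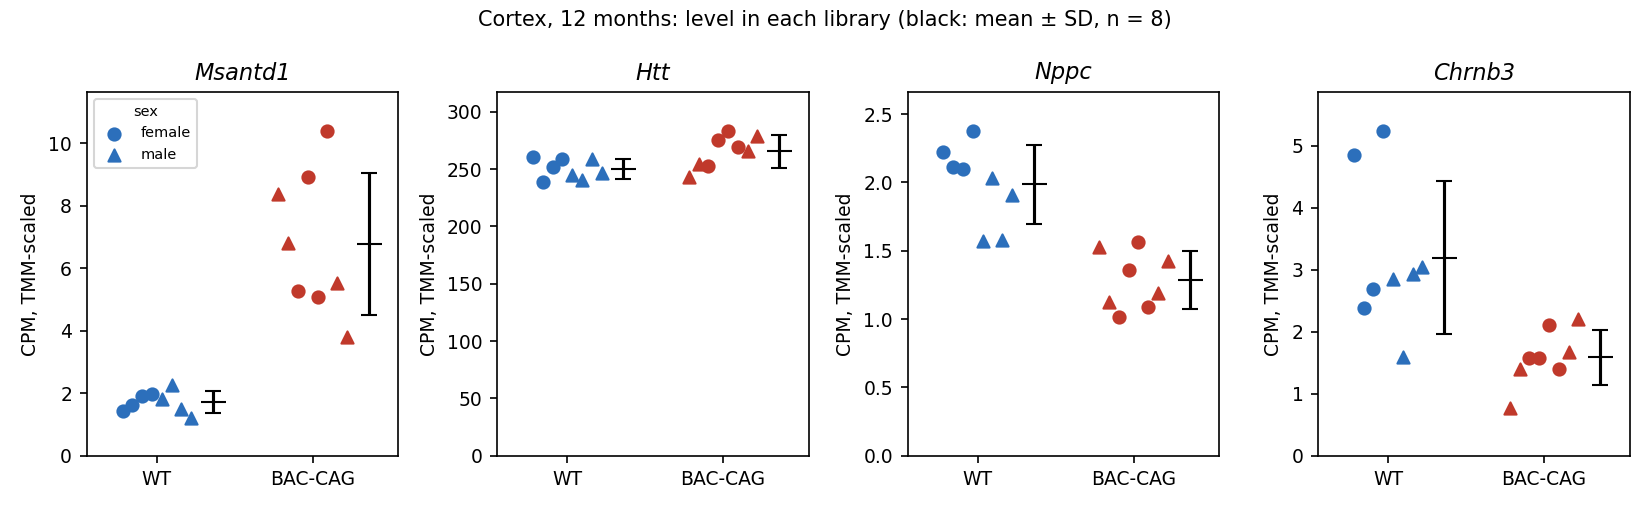
Level of Msantd1, Htt, Nppc and Chrnb3 in each cortex library at 12 months, in TMM-scaled CPM on axes that start at 0. Circles are females, triangles males, and the black marks give the mean ± SD (n = 8). Msantd1 separates the genotypes with 3.79 CPM as the lowest BAC-CAG and 2.28 CPM as the highest WT value, whereas the Htt ranges overlap.

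No other gene passed the edgeR test, but 2 more separated the genotypes completely. Every BAC-CAG library lay above every WT library for 2 genes (0.0111% of those tested), Msantd1 and Acy3, and below for 1 gene (0.00557%), Nppc. The libraries can be divided into groups of the same sizes in 12870 ways, and 1 of these gives such a separation in a given direction. As 17950 genes were tested, at least 1 gene per direction would be expected on average without a genotype effect. Complete separation alone therefore does not set Acy3 and Nppc apart from chance. Acy3, which encodes an aminoacylase, stood at 2.22 to 4.04 CPM in BAC-CAG (median 2.99) and at 1.86 to 2.12 CPM in WT (median 2.00). Its log2 change was 0.57 (SE 0.13, adjusted p = 0.49, edgeR). Nppc, which encodes C-type natriuretic peptide, stood at 1.02 to 1.56 CPM in BAC-CAG (median 1.28) and at 1.57 to 2.38 CPM in WT (median 2.06). Its log2 change was -0.61 (SE 0.12, adjusted p = 0.23, edgeR). The gap between the groups was narrow for both, and DESeq2 called both.

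DESeq2, run with the same terms, called 10 genes: Msantd1, Acy3, Irf7, Oas2 and Tmc3 as higher and Nppc, Chrnb3, C7, Zfp945 and Arpp21 as lower. All had an edgeR adjusted p of 0.21 to 0.58 apart from Msantd1. Tmc3 and C7 averaged under 1 CPM and are named here because of that test, after their values were seen.

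**Figure D2:**
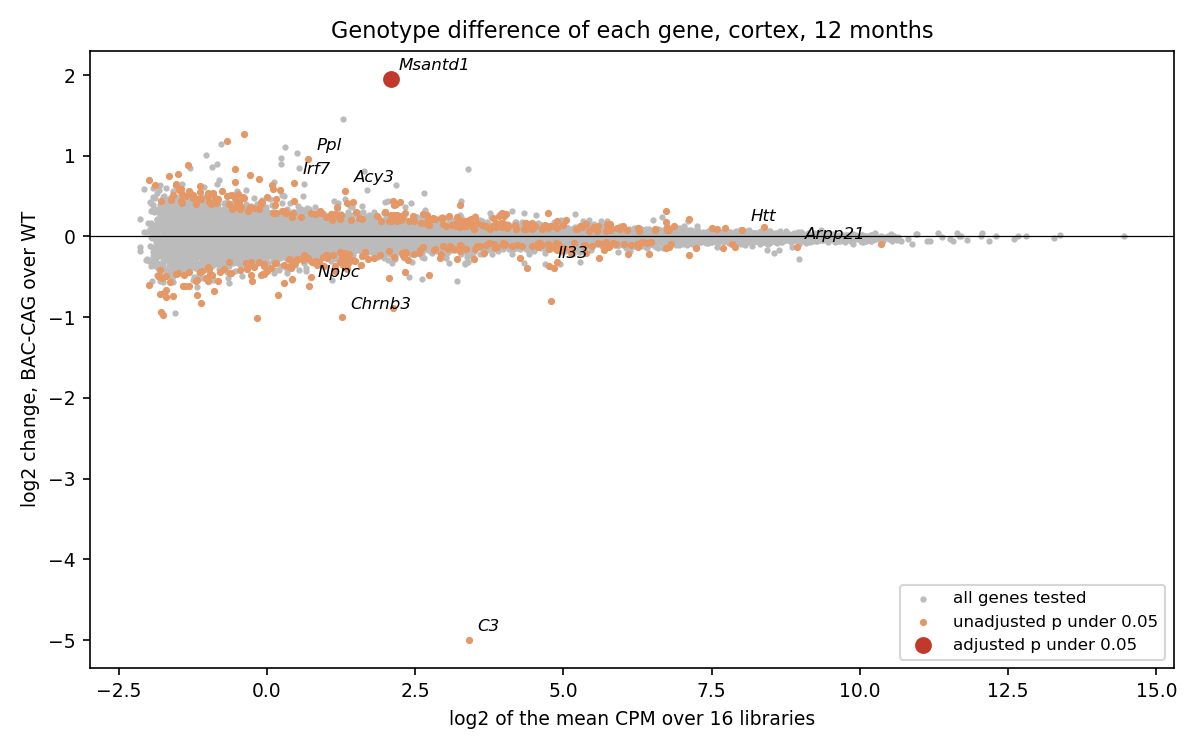
Log2 change between BAC-CAG and WT cortex (vertical axis) against the log2 of the mean CPM over the 16 libraries (horizontal axis), 1 point per gene tested. Orange points have an unadjusted p under 0.05, and the red point, Msantd1 at 1.95, is the one with an adjusted p under 0.05. C3 stands alone at -5.00.

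Among the genes with the smallest p values on the higher side were 2 of the interferon response. Irf7, the transcription factor that amplifies type I interferon production, stood at 1.15 to 2.23 CPM in BAC-CAG (median 1.68) and at 0.699 to 1.27 CPM in WT (median 1.13). All 8 BAC-CAG libraries lay above the WT median, as they did for 1.15% of all genes tested. The lowest of them overlapped with the highest WT libraries. The log2 change was 0.67 (SE 0.13, adjusted p = 0.23, edgeR), 0.68 in females and 0.65 in males. Oas2, an enzyme that senses double-stranded RNA, stood at 0.776 to 1.36 CPM in BAC-CAG (median 1.01) and at 0.41 to 0.828 CPM in WT (median 0.60), on 14 to 50 reads per library. The log2 change came to 0.76 (SE 0.14, adjusted p = 0.21, edgeR), and it passed the edgeR test when BAC-CAG replicate 5 was left out (adjusted p = 0.026).

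Of 34 tested interferon-stimulated effectors 31 had a positive log2 change (91.2%), against 50.4% of all genes tested, with a median of 0.11 against 0.0006. None was called by edgeR with all libraries, whereas DESeq2 called Oas2. In the edgeR fit 2 had an unadjusted p under 0.05, both higher: Oas2 and Ifi44 (log2 change 0.56, SE 0.22). Isg15, a ubiquitin-like modifier, had a log2 change of 0.44 (SE 0.23) and overlapped widely, at 0.394 to 0.928 CPM in BAC-CAG and 0.225 to 0.928 CPM in WT. Gbp3, a guanylate-binding protein, had one of 0.27 (SE 0.15). Cmpk2, Herc6 and Tor3a were the 3 with a negative change, named after their values were seen. The group's median was 0.10 in each sex and between 0.08 and 0.14 with any single library left out. It was 0.10 without the 3 libraries set apart on the first component. The sums over the list ranged from 362.4 to 409.5 CPM in BAC-CAG and from 357.2 to 402.8 CPM in WT. In cortex at 6 months, in separate animals, 25 of 33 effectors had a positive change (median 0.14), and at 2 months 13 of 32 (median -0.04). In the striatum of the 12-month animals it was 15 of 33 (median -0.01) and in BACHD cortex 11 of 33 (median -0.07).

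The interferon sensors and transcription factors had 17 of 22 positive changes (median 0.05), with Irf7 and Irf8, a factor of the microglial lineage (0.19, SE 0.09), under an unadjusted p of 0.05. Of the genes of MHC class I presentation and the immunoproteasome 14 of 16 were positive (median 0.09, and 0.02 without BAC-CAG replicate 6). B2m, the light chain of MHC class I, had a log2 change of 0.15 (SE 0.08), and the highest value, 72.3 CPM, came from BAC-CAG replicate 6. That library also had the highest Irf7, Gbp2 and Gbp3. Microglial genes stood beside these groups with 17 of 22 positive changes and a median of 0.07. Ctss, a lysosomal protease of microglia, had a log2 change of 0.15 (SE 0.06), and C1qc, a subunit of the complement initiator C1q, one of 0.14 (SE 0.06). Whether the microglial share takes part in the interferon values was not tested.

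Promoter sequence was examined for the interferon group, most of whose members lie on the same side. The motif searched was the interferon-stimulated response element written as GAAA, any 2 bases and GAAA again, on both strands, in the 250 bases before each gene's start in RefSeq (GRCm38.p6). It was present for 11 of the 25 effectors that have an entry (44%), against 3.06% of the 11802 tested genes with an entry. The effectors were listed as interferon-stimulated genes, so this share does not depend on the genotype values here and lends them no weight. Oas2 has no entry. None of the 20 matched genes among the 24 with the smallest p values held it, Irf7 included, which says only that these letters are not in that window. Sequences are shown for 4 genes with the motif, named by their values in the interferon, MHC class I and reactive astrocyte lists. The last 150 bases before the start follow, with the motif in capitals (overlapping matches run together):
Isg15, chr4:156200819-156200968, minus strand: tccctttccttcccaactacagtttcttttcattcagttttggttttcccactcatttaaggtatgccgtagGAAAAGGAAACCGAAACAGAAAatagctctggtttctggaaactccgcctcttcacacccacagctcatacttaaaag
Gbp3, chr3:142559894-142560043, plus strand: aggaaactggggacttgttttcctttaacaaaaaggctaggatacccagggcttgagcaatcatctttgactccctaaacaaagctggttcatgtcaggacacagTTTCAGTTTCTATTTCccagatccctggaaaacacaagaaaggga
Gbp2, chr3:142620513-142620662, plus strand: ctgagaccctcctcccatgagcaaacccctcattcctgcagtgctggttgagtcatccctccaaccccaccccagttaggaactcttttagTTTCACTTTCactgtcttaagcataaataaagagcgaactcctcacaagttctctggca
B2m, chr2:122147537-122147686, plus strand: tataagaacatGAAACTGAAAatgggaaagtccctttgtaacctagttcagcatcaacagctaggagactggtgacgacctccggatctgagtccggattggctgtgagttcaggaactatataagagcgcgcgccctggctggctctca
Isg15 and B2m carry it in the forward orientation, Gbp2 and Gbp3 as its reverse complement. The log2 changes of these 4 genes were 0.44, 0.27, 0.31 and 0.15 for Isg15, Gbp3, Gbp2 and B2m, and none was called.

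Other genes on the higher side belonged to no single list. Tmc3, a channel-like protein of the transmembrane family to which the hair-cell channel gene Tmc1 belongs, stood at 0.482 to 1.54 CPM in BAC-CAG (median 1.16) and at 0.22 to 0.824 CPM in WT (median 0.39). Its log2 change was 1.27 (SE 0.27, adjusted p = 0.415, edgeR). Ppl, which encodes the cytolinker periplakin, stood at 0.789 to 2.85 CPM in BAC-CAG (median 2.40) and at 0.542 to 1.78 CPM in WT (median 0.98). Its log2 change was 0.97 (SE 0.27), with BAC-CAG replicates 5 and 8 inside the WT range. Tmc1 had a log2 change of 0.63 (SE 0.16). Grem1, a secreted antagonist of bone morphogenetic proteins, stood at 2.65 to 3.84 CPM in BAC-CAG and 1.92 to 2.87 CPM in WT, with a log2 change of 0.43 (SE 0.10). Plxnb3, a semaphorin receptor, had a log2 change of 0.29 (SE 0.07), and its highest value, 38.1 CPM, came from BAC-CAG replicate 2, 1 of the 3 libraries set apart on the first component. Without those 3 it was 0.22. Trim56, a ubiquitin ligase of innate immunity, Ptprk, a receptor tyrosine phosphatase, and Spns2, a sphingosine-1-phosphate transporter, had log2 changes of 0.23 (SE 0.06), 0.18 (SE 0.05) and 0.15 (SE 0.04). Gzmm, a granzyme, and Fam114a1 had changes of 0.44 (SE 0.13) and 0.26 (SE 0.07).

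On the lower side, Chrnb3, the beta-3 subunit of nicotinic acetylcholine receptors, stood at 0.776 to 2.21 CPM in BAC-CAG (median 1.58) and at 1.59 to 5.24 CPM in WT (median 2.89). All 8 BAC-CAG libraries lay below the WT median, as they did for 1.09% of all genes tested. WT replicate 6, 1 of the 3 libraries set apart on the first component, gave the lowest WT value. The log2 change was -1.003 (SE 0.21, adjusted p = 0.415, edgeR), and it passed when the first surrogate variable was added beside sex (-0.97, adjusted p = 0.0044). Zfp945, a zinc-finger protein, stood at 17.9 to 29.2 CPM in BAC-CAG (median 26.4) and at 24.8 to 41.4 CPM in WT (median 31.96). Its log2 change was -0.39 (SE 0.08, adjusted p = 0.415, edgeR), and it passed with the same surrogate variable (-0.37, adjusted p = 0.0044). C7, a component of the terminal complement complex, had a log2 change of -1.01 (SE 0.22) at 0.37 to 0.953 CPM in BAC-CAG and 0.631 to 1.89 CPM in WT.

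Arpp21, which encodes a phosphoprotein regulated by cyclic AMP, stood at 452.5 to 495.7 CPM in BAC-CAG (median 466) and at 479.3 to 535.1 CPM in WT (median 519), a log2 change of -0.13 (SE 0.03, adjusted p = 0.578, edgeR). Il33, an alarmin cytokine of glia, stood at 17.5 to 29.1 CPM in BAC-CAG and at 24.6 to 35.4 CPM in WT, a log2 change of -0.37 (SE 0.09). Car2, the carbonic anhydrase of oligodendrocytes, had a log2 change of -0.23 (SE 0.06), with BAC-CAG replicate 2 at 160.3 CPM inside the upper part of the WT range of 139.5 to 166.4 CPM. Clec11a, a growth factor, Col24a1, a fibrillar collagen, and Hmgcs1, the enzyme that makes HMG-CoA for cholesterol synthesis, had changes of -0.25 (SE 0.07), -0.39 (SE 0.12) and -0.14 (SE 0.04). Slc35f4 and Commd10 had changes of -0.13 (SE 0.04) and -0.14 (SE 0.04). All 8 BAC-CAG libraries lay above the WT median for 207 genes (1.15% of those tested) and below it for 195 (1.09%).

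C3, the central complement component, had the largest log2 change of any gene named here, -5.00 (SE 1.0, adjusted p = 0.21, edgeR), and it came from 2 animals. WT replicates 7 and 8, both males, stood at 81.5 and 79.3 CPM, whereas the other 14 libraries stood at 0.149 to 2.11 CPM. In the striatum of the same 2 animals C3 was 67.7 and 66.7 CPM, against 1.67 to 4.23 CPM in the other 14 animals. In the 36 further libraries of each tissue, from other ages and the BACHD cohort, C3 reached at most 1.44 CPM in cortex and 8.91 CPM in striatum. Without these 2 libraries the log2 change was -0.30. Other complement genes lay within or close to the range of the other 6 WT libraries. C4b was at 6.75 and 6.54 CPM (6.05 to 18.1 in the others), C1qa at 33.6 and 30.1 (30.3 to 36.2) and C1qb at 20.8 and 18.7 (18.4 to 20.3). The astrocyte gene Gfap was at 70.7 and 60.04 CPM, within 53.7 to 135.9 CPM of the others. Both animals carry the tag letter G in the titles, and the only BAC-CAG animal with that letter, replicate 8, had 0.285 CPM of C3 in cortex. Without either WT replicate 5 or WT replicate 6, C3 passed the edgeR test (adjusted p = 0.0088 and 0.032). What the letters stand for is not given in the sources used here.

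**Figure D3:**
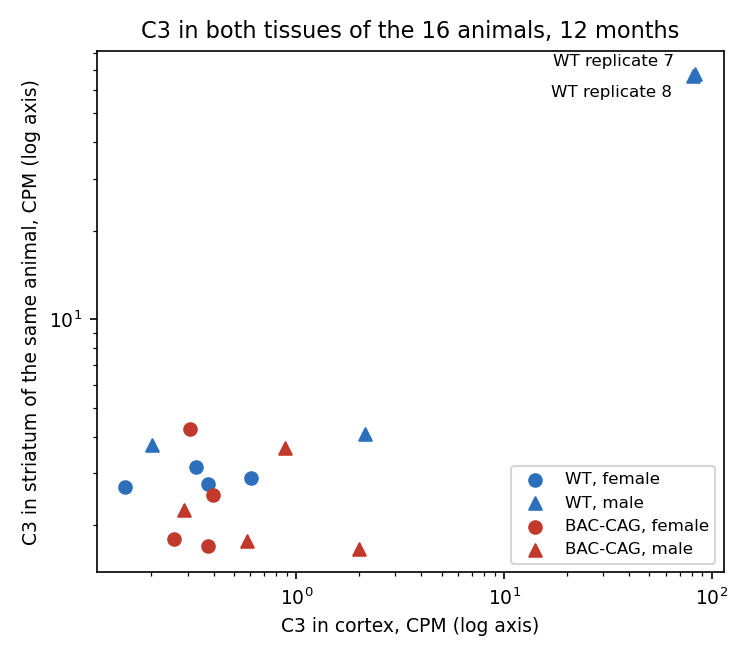
C3 level in cortex (horizontal) and in striatum (vertical) of each of the 16 animals at 12 months, in CPM on log axes. WT replicates 7 and 8 lie together at 66.7 to 83.0 CPM in both tissues, and the other 14 animals lie at or below 2.14 CPM in cortex and 4.23 CPM in striatum.

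None of the lists of neuronal, glial and vascular genes held a gene called by edgeR. DESeq2 called Arpp21, of the striatal projection neuron list, and Chrnb3, of the nicotinic and muscarinic receptor list. Of 37 lists by cell type or function, 21 kept the sign of their median with any single library left out and 16 did not, among them the lists of striatal, interneuron, astrocyte and oligodendrocyte genes. Several medians had opposite signs in females and males, such as layer 5 (-0.15 and 0.02), reactive astrocytes (-0.14 and 0.18) and oligodendrocytes (-0.15 and 0.10). Of 18 genes of cortical excitatory neurons 5 had a positive change and the median was -0.03. Slc17a7 had a log2 change of -0.09 (SE 0.04) and Kcnv1, a modifier subunit of potassium channels, one of -0.14 (SE 0.05). Both had an unadjusted p under 0.05. Upper layer genes had 10 of 16 positive changes (median 0.01) and layer 5 genes 2 of 17 (median -0.08). Within the layer 5 list Etv1, a transcription factor, had a log2 change of -0.17 (SE 0.08), Hsd11b1 one of -0.23 (SE 0.14), Pcp4 one of -0.15 (SE 0.10) and Chrna6, a nicotinic subunit that assembles with Chrnb3, one of -0.53 (SE 0.31).

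The layer 6 and subplate genes were all on the lower side, 0 of 15 being positive, with a median of -0.14. The immediate early genes, which neurons switch on within minutes of activity, had 1 of 20 positive changes and a median of -0.15. Nr4a2 belongs to both lists and had a log2 change of -0.80 (SE 0.35), at 9.41 to 44.8 CPM in BAC-CAG (median 16.9) and 7.93 to 58.8 CPM in WT (median 31.2). Of the early genes Dusp1, Btg2 and Cyr61 had log2 changes of -0.32 (SE 0.21), -0.33 (SE 0.23) and -0.53 (SE 0.32), and in layer 6 Hs3st4 and Cplx3 had changes of -0.19 (SE 0.13) and -0.26 (SE 0.18). Both lists differed in sign between the sexes. In females the medians were -0.47 for layer 6 and -0.55 for the early genes, in males 0.15 and 0.17. The mean log2(CPM + 1) of the early genes was 4.45 to 5.14 in BAC-CAG females and 4.99 to 5.64 in WT females, and 4.83 to 5.65 in BAC-CAG males against 4.50 to 5.91 in WT males. Groups overlapped in each sex, and no single gene of either list was called for a difference between the sexes. With a single library left out the medians ran from -0.25 (without BAC-CAG replicate 1) to -0.04 (without WT replicate 2) for layer 6. For the early genes they ran from -0.27 (without WT replicate 7) to -0.01 (without WT replicate 5). Without the 3 libraries set apart on the first component they were -0.29 and -0.41, and without WT replicates 7 and 8 -0.42 and -0.38. In cortex at 6 months, from separate animals, both medians were positive, 0.17 for layer 6 and 0.19 for the early genes. At 2 months they were -0.14 and 0.03, and in BACHD cortex 0.05 and -0.001. In the striatum of the 12-month animals they were 0.12 and -0.15.

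Genes of striatal projection neurons had 9 of 31 positive changes in cortex (median -0.04). Pde10a, a phosphodiesterase of these neurons, had a log2 change of -0.22 (SE 0.10), with its highest level, 157.9 CPM, in WT replicate 6, and -0.15 without the 3 libraries. Hpca, a neuronal calcium sensor, had a change of -0.13 (SE 0.07). Interneuron genes had 11 of 25 positive (median -0.02), with Reln, a secreted matrix protein, at -0.13 (SE 0.05). BDNF and its receptors had 1 of 9 positive (median -0.04). Nicotinic and muscarinic receptor genes had 6 of 17 positive (median -0.02). Besides Chrnb3, Chrnb1 had an unadjusted p under 0.05, with a log2 change of 0.47 (SE 0.17), and Chrna2 had a change of 0.53 (SE 0.37) with its highest value, 1.58 CPM, in BAC-CAG replicate 1. Glutamate and GABA receptor genes had 10 of 24 and 5 of 14 positive changes (medians -0.01 and -0.002).

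Endothelial genes had 17 of 20 positive changes (median 0.08, and 0.03 without BAC-CAG replicate 7) and mural cell genes 9 of 12 (median 0.06, and 0.003 without WT replicate 4). Flt1, a receptor for vascular endothelial growth factor, stood at 107.9 to 142.3 CPM in BAC-CAG and 98.1 to 119.9 CPM in WT, a log2 change of 0.13 (SE 0.05). Kdr, the second such receptor, Ly6c1 and the glucose transporter gene Slc2a1 had changes of 0.17 (SE 0.09), 0.18 (SE 0.09) and 0.09 (SE 0.05). Astrocyte genes had 5 of 20 positive (median -0.02) and genes of reactive astrocytes 13 of 19 (median 0.08, and 0.003 without the 3 libraries). Oligodendrocyte genes had 11 of 22 positive (median 0.005). Among them Tspan2 and Aspa, genes of mature cells, had changes of -0.27 (SE 0.10) and -0.28 (SE 0.12), and Olig1, a lineage transcription factor, one of 0.10 (SE 0.05). Enpp6, a gene of newly formed oligodendrocytes, had a change of 0.44 (SE 0.18), with its highest value, 9.0 CPM, in BAC-CAG replicate 2, and 0.17 without the 3 libraries.

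Of the 15 choroid plexus and ependymal genes listed, the 6 that were tested were all on the higher side (median 0.38). The sum over all 15 ranged from 11.5 to 58.1 CPM in BAC-CAG and 11.9 to 29.9 CPM in WT. Ttr, which encodes transthyretin, was highest in BAC-CAG replicates 2 and 1 (32.5 and 16.4 CPM) and stood at 3.11 to 15.9 CPM elsewhere. The change was 0.44 (SE 0.40) and -0.29 without the 3 libraries set apart on the first component, and the list's median was then 0.05. Genes of meninges and fibroblasts had 6 of 16 positive changes (median -0.07), with medians of -0.45 in females and 0.38 in males. With single libraries left out this median ran from -0.24 to 0.13, the latter without WT replicate 3.

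Genes of metabolism and protein handling differed by small amounts. Nuclear genes of the respiratory chain had 5 of 34 positive changes (median -0.03), with Sdhb, a subunit of complex II, at -0.07 (SE 0.03). Cholesterol synthesis genes had 2 of 24 positive (median -0.06), with Hmgcs1 at the head, followed by Acat2 (-0.09, SE 0.05) and Nsdhl (-0.14, SE 0.07). Chaperone genes had 13 of 20 positive (median 0.03), with Hspa1b, the inducible heat-shock protein, at 0.24 (SE 0.10). Autophagy genes had 9 of 20 positive (median -0.005), genes for partners of huntingtin 11 of 25 (median -0.01), and DNA mismatch and excision repair genes, some of which act on CAG repeat length, 16 of 25 (median 0.008). The clustered protocadherins had 37 of 57 positive changes (median 0.02). Circadian clock genes had 6 of 22 positive (median -0.03).

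**Figure D4:**
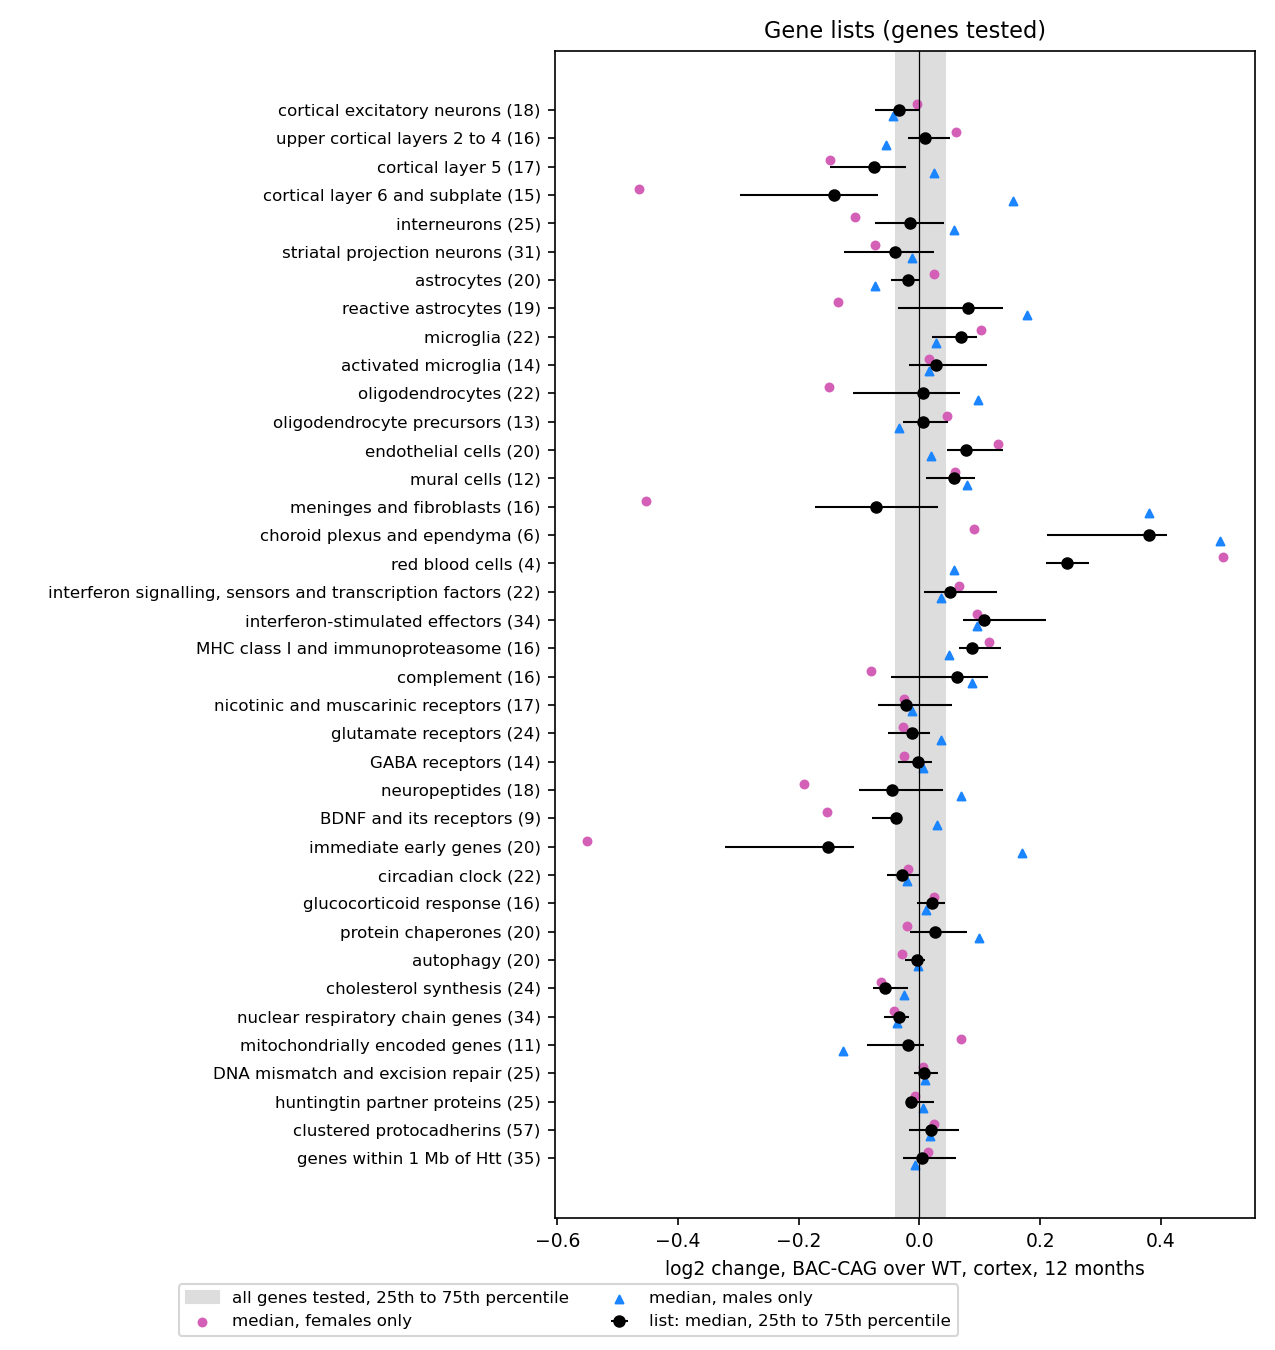
Median log2 change of each gene list in cortex at 12 months (black points, bars from the 25th to the 75th percentile of the members), with the number of genes tested in parentheses. Pink circles and blue triangles are the medians in females and males, and the grey band is the 25th to 75th percentile of all genes tested. The layer 6 and immediate early lists have medians of -0.14 and -0.15 with opposite signs in the sexes, and the interferon effectors have 0.11 with the same sign in both.

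The same mice's striatum gave 64 calls among 18246 genes (0.351%), 18 higher and 46 lower in BAC-CAG, and these were followed in cortex. Of the 60 that were tested in cortex 1 was called there, Msantd1, and all 60 had a smaller change in cortex than in striatum, where they had been chosen for it. Of the 17 tested genes higher in striatum 14 had a positive change in cortex, with a median of 0.11 against 0.55 in striatum. Of the 43 tested genes lower in striatum 14 had a positive and 29 a negative change in cortex, with a median of -0.04 against -0.44. Both tissues come from the same animals, so these values are not independent of each other. The striatum libraries varied widely in cortical transcripts (Slc17a7 at 8.24 to 690.1 CPM), and these differed with genotype. Between BAC-CAG and WT striatum the cortical excitatory neuron genes had a median log2 change of 0.48. The striatal projection neuron genes had one of -0.28. What part these differences have in the striatal calls and in the tissue comparison was not tested. Pkp2, which encodes plakophilin 2, a desmosomal protein, had a log2 change of -1.01 (SE 0.10, adjusted p = 8.4e-05, edgeR) in striatum and 0.08 (SE 0.21) in cortex. In cortex it ranged from 1.84 to 4.18 CPM in BAC-CAG and from 1.60 to 4.16 CPM in WT. Il33 and Car2 were called in striatum at -0.62 (SE 0.09) and -0.55 (SE 0.09) with adjusted p values of 0.0068 and 0.016 (edgeR). Tmc3 was called there at 1.43 (SE 0.25, adjusted p = 0.017, edgeR).

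The difference of the genotype effects between the tissues was called for 1 of 19167 genes (0.00522%; 1344 at an unadjusted p under 0.05). This was 2610316D01Rik, with a log2 change of -0.08 (SE 0.07) in cortex and 0.41 (SE 0.07) in striatum, a difference of -0.50 (SE 0.09, adjusted p = 0.047, edgeR). With the animal as a block, which uses the pairing of the tissues, 0 genes were called by edgeR and 1800 had an unadjusted p under 0.05, while DESeq2 without the block called 11, 2610316D01Rik and Pkp2 among them. For Msantd1 the effect was 2.44 (SE 0.22) in striatum and 1.95 (SE 0.21) in cortex, and the difference did not pass (adjusted p = 0.82, edgeR).

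Cortex at 6 months, from separate animals, served as the younger reference. The genotype effect at 12 months was called different from that at 6 months for 0 of 18496 genes by edgeR, with 413 at an unadjusted p under 0.05, and DESeq2 called 0. Msantd1 had changes of 2.14 (SE 0.21), 1.76 (SE 0.12) and 1.95 (SE 0.21) at 2, 6 and 12 months. Chrnb3 had -0.51 (SE 0.17), -1.04 (SE 0.15, adjusted p = 0.010, edgeR) and -1.003 (SE 0.21) at these ages. By edgeR with the main settings it was called at 6 months only, while at 12 months DESeq2 called it. Its difference between 12 and 6 months was 0.04. Zfp945 had -0.34 (SE 0.09), -0.27 (SE 0.07) and -0.39 (SE 0.08), and C7 -0.89 (SE 0.22), -0.61 (SE 0.25) and -1.01 (SE 0.22). Tmc3 and Acy3 had values near 0 or below it at the younger ages: -0.51 (SE 0.30) and -0.05 (SE 0.26) for Tmc3 at 2 and 6 months, and 0.01 (SE 0.19) and 0.13 (SE 0.12) for Acy3. Of the 12 higher and 12 lower genes with the smallest p at 12 months, 23 were tested at 6 months and 20 had the same sign there, against 51.2% of all genes. At 2 months it was 16 of 23 against 50.9%. The other animals and their own WT littermates supply those values, which do not come from the 16 libraries that chose the genes.

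BACHD mice at 12 months supplied a second line, with 4 BACHD and 4 WT cortex libraries in a separate table, and 22382 genes could be linked between the tables by symbol. The genotype effect was called different between the lines for 0 of 15906 genes by edgeR (514 at an unadjusted p under 0.05), and DESeq2 called 0. Msantd1 had a log2 change of 3.33 (SE 0.24, adjusted p = 6.5e-04, edgeR) in BACHD cortex, a difference of -1.38 between BAC-CAG and BACHD that did not pass the test. The change of Htt was 0.33 (SE 0.07) in BACHD and 0.08 (SE 0.03) in BAC-CAG. Chrnb3, C7 and Zfp945 had changes of -1.09 (SE 0.16), -1.03 (SE 0.25) and -0.28 (SE 0.06) in BACHD cortex, none of them called. Irf7 had -0.05 (SE 0.16) and Tmc3 0.07 (SE 0.10) there. Of the 24 genes with the smallest p in BAC-CAG cortex 18 had the same sign in BACHD cortex, against 50.5% of all genes.

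**Figure D5:**
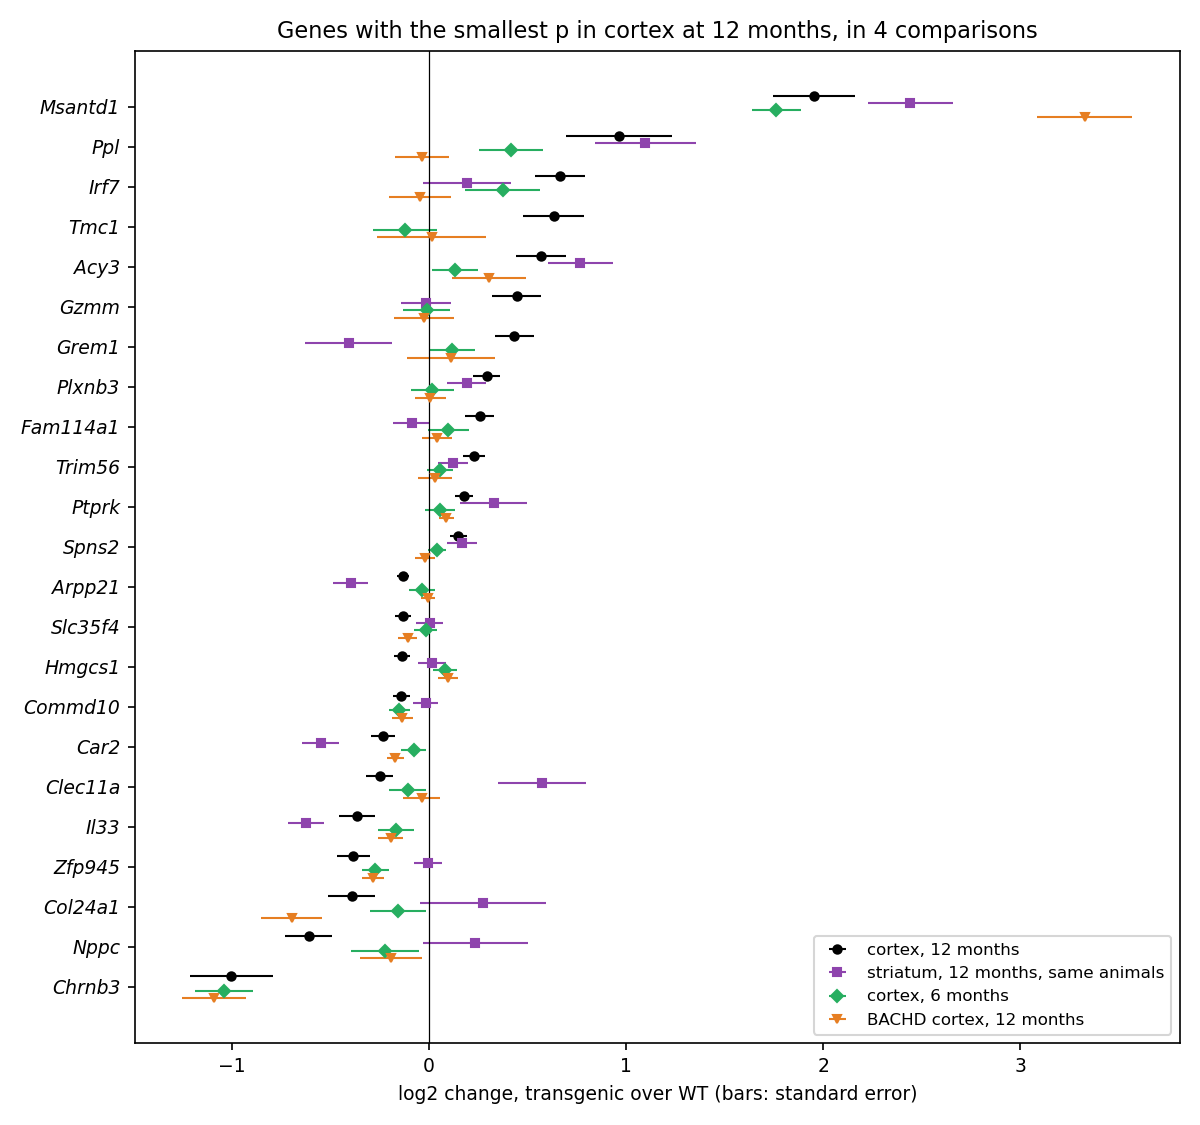
Log2 change (points) with its standard error (bars) of the genes with the smallest p in cortex at 12 months, C3 left out, in BAC-CAG cortex and striatum at 12 months, BAC-CAG cortex at 6 months and BACHD cortex at 12 months. Msantd1 lies at or above 1.76 in all 4 comparisons and Chrnb3 between -1.09 and -1.003 in the 3 cortex comparisons, while Irf7 is at 0.67 in cortex at 12 months and at -0.05 in BACHD cortex.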

How the data were processed

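RNA of dissected cortex was sequenced with a stranded TruSeq kit, per the labels' protocols. The authors deposited whole-number read counts per mouse Ensembl gene; STAR, HTSeq and mouse build GRCm38 are named per the submitters' processing notes, with versions and annotation release not given in the sources used here. Gene positions were taken from GENCODE M21. The counts were fitted with edgeR 4.0.16 (R 4.3.3): TMM scaling, filterByExpr by group, quasi-likelihood F-test, genotype with sex as a covariate, Benjamini-Hochberg adjustment over all genes tested, threshold 0.05. The standard error of a log2 change is its size divided by the square root of F. Genotype effects were compared between sexes, tissues, ages and lines by interaction terms. The scripts were tested on simulated data.

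Genes named are those called; the 12 higher and 12 lower with the smallest p among those with a mean of at least 1 CPM, predicted and Y-linked genes and Xist left out; up to 4 per list by p; Htt and its nearest neighbours; Chrnb3, Pkp2 and Irf7; and up to 6 each from the difference tests and the sex comparison. Others are said to be chosen after their values were seen, or are used to check tissue and libraries. The members and lists were chosen with earlier results of these data known. Among 56 pairs of libraries of the same genotype none agreed within sampling noise (chi-square per degree of freedom 4.31 to 32.7). Replicate numbers were given in accession order and do not pair BAC-CAG with WT animals; the animal tags in the titles pair cortex with striatum. P-values measure the spread between animals, except in the main test between tissues. That test treated cortex and striatum of an animal as independent, and the animal block was its paired alternative. Alternatives were DESeq2 1.42.0, limma 3.58.1 voom, RLE factors, no filter, no sex term, a surrogate variable (sva 3.50.0), tag letter or animal blocks, another threshold and single libraries left out. Leaving out the 3 libraries set apart on the first component, or WT replicates 7 and 8, was added after seeing the data. Some genes that the rule names are not reported here.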

Additional observations from a re-analysis of the deposited data

Results flagged for a closer look

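Among 166 groups of 8 libraries, 1 per named gene and genotype, 18 held a library far from the other 7 (10.8%). The cut-off flags about 1 in 20 groups of independent, normally distributed values. The groups here share the same libraries and several flags fall on the same library, so the 10.8% cannot be judged against that rate. BAC-CAG replicate 2 stood high for Plxnb3 (38 CPM, next library 30), C3 (1.97, next 0.877), Enpp6 (9, next 5.62), Foxj1 (6.34, next 2.81) and Ttr (32.5, next 16.4). BAC-CAG replicate 6 stood high for Gbp3 (8.75 CPM, next 5.71), Gbp2 (8.07, next 4.63) and B2m (72.3, next 50.5). BAC-CAG replicate 1 stood high for Reln (128 CPM, next 110) and Chrna2 (1.58, next 0.632), and BAC-CAG replicate 7 for Kdr (36.4, next 26.6).

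In WT cortex, replicate 6 stood high for Reln (134 CPM, next 115) and Pde10a (158, next 102), replicate 2 for Isg15 (0.928, next 0.54) and replicate 3 for Ttr (15.9, next 9.21). WT replicate 7 stood low for Col24a1 (14.1 CPM, next 22.6) and Sdhb (75, next 82.2), and WT replicate 4 for Trim56 (11.3, next 13). The 2 WT libraries high in C3 lie together, so neither is set apart from its nearest neighbour by this measure.

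The genotype effect of 2610316D01Rik was called different between the tissues, at -0.498 (log2, cortex minus striatum, adjusted p = 0.047, edgeR). The call was lost with RLE factors, without the filter and with the animal as a block. With a single library left out it held only without BAC-CAG replicate 8 or WT replicate 2, 4 or 6.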

How the results depend on the processing

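Between the genotypes 1 gene was called by edgeR with RLE factors, without the filter, without the sex term and with the adjusted p under 0.1, and by limma-voom. DESeq2 called 10, the surrogate variable gave 3 (Msantd1, Chrnb3 and Zfp945), and with single libraries left out it was 1 to 2, Oas2 being added without BAC-CAG replicate 5 and C3 without WT replicate 5 or 6. With the tag letter as a block it was 0, with 538 at an unadjusted p under 0.05. The sex count was 301 at an adjusted p under 0.1, 368 by DESeq2 and 54 to 154 with single libraries left out. The difference of the genotype effects between the sexes gave 1 gene by DESeq2. The difference between the tissues gave 11 by DESeq2, 0 with RLE factors, 0 without the filter and 0 to 1 with single libraries left out. With the replicate block of the animal, which rests on the pairing of the tissues, it gave 0 genes, with 1800 at an unadjusted p under 0.05. BAC-CAG and WT animals share no replicate numbers in the labels, so the letter block is the within-letter comparison of the genotypes, carried by the letters b, F and G. Letters A and c hold only BAC-CAG animals and letter a only WT animals, so there genotype and letter cannot be told apart. The cortex and striatum correlation of Msantd1 was 0.587 without the 2 farthest animals. Some named genes near 0 turned sign. Nop14 was 0.012 with the letter block. Grk4 was 0.0096 by limma-voom and ran from -0.063 to 0.0092 with single libraries left out (0.0033 without BAC-CAG replicate 5). Pkp2 was -0.229 with the letter block, -0.018 without the 3 libraries set apart on the first component and from -0.028 to 0.193 with single libraries left out (-0.0039 without WT replicate 1, -0.0038 without WT replicate 5). Ttr was -1.08 with the letter block and -0.293 without the 3 libraries, and Chrna2 -0.0093 without them; with single libraries left out Ttr ran from 0.040 to 0.736 and Chrna2 from 0.088 to 0.723. The causes were not tested. Oas2 rests on 14 to 50 reads per library.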

Other observations

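Some groups were not described above. Genes of the glucocorticoid response had 11 of 16 positive log2 changes in cortex (median 0.02), neuropeptide genes 7 of 18 (median -0.05), complement genes 10 of 16 (median 0.06), genes of activated microglia 10 of 14 (median 0.03) and mitochondrially encoded genes 5 of 11 (median -0.02). The 4 tested red blood cell genes were all positive (median 0.24), and the median was -0.17 without BAC-CAG replicate 7, which had 121.3 CPM of Hbb-bs and 8.27 of Alas2. None of these genes was called by edgeR.

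Msantd1 was set against 27 other genes over the 8 BAC-CAG cortex libraries, as values only. Pearson's r was 0.83 with Fam114a1 (exact permutation p = 0.0081, Benjamini-Hochberg adjusted 0.204) and -0.80 with Arpp21 (exact permutation p = 0.015, adjusted 0.204). No relation had an adjusted p under 0.05.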
